A study of Mus musculus with 6 samples.

Results

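DNA replication and S phase genes were followed in whole kidneys of mice with an induced deletion of Pkd1, the polycystin-1 gene, whose mutation causes most cases of autosomal dominant polycystic kidney disease. The genes are a list of 49 symbols that code for the proteins that prepare, open, copy and repackage DNA. All 49 matched 1 identifier each, out of 56923 gene identifiers counted, and all 49 were among the 18273 genes with enough counts to be tested. Messenger RNA was sequenced from 3 Pkd1 KO kidneys (Pkd1flox/flox.Pax8rtTA.Tet-O-Cre) and 3 control kidneys (Pkd1flox/flox.Tet-O-Cre), all from male mice. Both groups carried floxed Pkd1 alleles and the Cre transgene, and both drank doxycycline at 2 mg/ml with 5% sucrose for 14 days, from postnatal day 28 to day 42. Controls lacked Pax8rtTA, the activator that switches Cre on in tubule cells under doxycycline, so by design the deletion was limited to tubule cells and other kidney cells still carried the gene. Kidneys were taken at 10 weeks, and the submitters describe the controls as non-cystic.

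Before a cell can copy its DNA, the origin recognition complex, Cdc6 and Cdt1 load the ring-shaped MCM helicase onto origins, and the kinase Cdc7 with its partner Dbf4, together with Cdc45 and the GINS complex, turns that ring into a moving helicase. Polymerase alpha with primase starts each new strand, the clamp loader RFC places the sliding clamp PCNA, and polymerases delta and epsilon extend the strands while nucleotide synthesis and histone delivery keep pace. Most of these genes are transcribed as cells pass from G1 into S phase under E2F factors, and most tubule cells of the adult kidney are quiescent.

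Libraries held 51966474 to 62983791 gene counts in Pkd1 KO kidneys and 45020173 to 55548316 in controls. Pkd1 itself had 8.77, 9.003 and 10.0 CPM (gene counts scaled to library size and composition) in Pkd1 KO kidneys, against 30.0, 46.4 and 23.6 CPM in control kidneys, a log2 fold change of -1.85 ± 0.24 (SE; adjusted p = 0.00234, edgeR quasi-likelihood test with Benjamini-Hochberg adjustment over all genes tested). A call here means an adjusted p under 0.05 in that test. The floxed exons are not named in the sources used here, and these counts cover the whole gene. Across all genes, log2 fold changes followed GC content and exon length, and with a correction for both (offsets in the model, described with the processing) the Pkd1 value was -0.34 (adjusted p = 0.0644). The file names place all 3 Pkd1 KO libraries in 1 sequencing project and all 3 controls in another, so genotype and project cannot be told apart in any result below. Nothing in the labels says that each sample came from its own animal, so p-values measure only the spread between these samples. In whole kidney, more cells of a type and more RNA per cell cannot be told apart either.

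Replication and S phase genes were mostly higher in Pkd1 KO kidneys. Of the 49, 24 rose, 5 fell and 20 did not pass the test, with a median log2 fold change of 0.75. Over all 18273 genes tested, 46.9% were called, 22.7% as higher and 24.2% as lower, and the median log2 fold change was 0.03. The members' share of higher calls, 48.98%, was above that background, and their share of lower calls, 10.2%, was below it. In 33 of 49 members every Pkd1 KO library lay above every control, in 8 every Pkd1 KO library lay below, and in 8 the groups overlapped, whereas over all genes tested 31.2% lay fully above and 30.0% fully below. At least a 2-fold rise was seen in 17 of the 24 that rose, and 11.6% of all genes tested rose by as much.

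With the GC and length offsets, 30 members rose and 1 fell, against 17.1% and 17.3% of the 17785 genes that could be corrected, and the members' median was 0.67. Rises were called in 22 members both with and without the offsets. Mcm7, Mcm10, Pola2, Pold1, Pole, Lig1, Tyms and E2f1 rose with the offsets only. Dbf4 (adjusted p = 0.0914) and Rfc4 (adjusted p = 0.0508) rose without them only. Rfc1 was the 1 gene called lower in both fits. Under upper-quartile scaling, 28.9% of all genes rose and 18.9% fell, and 34 members rose and 3 fell.

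**Figure D1:**
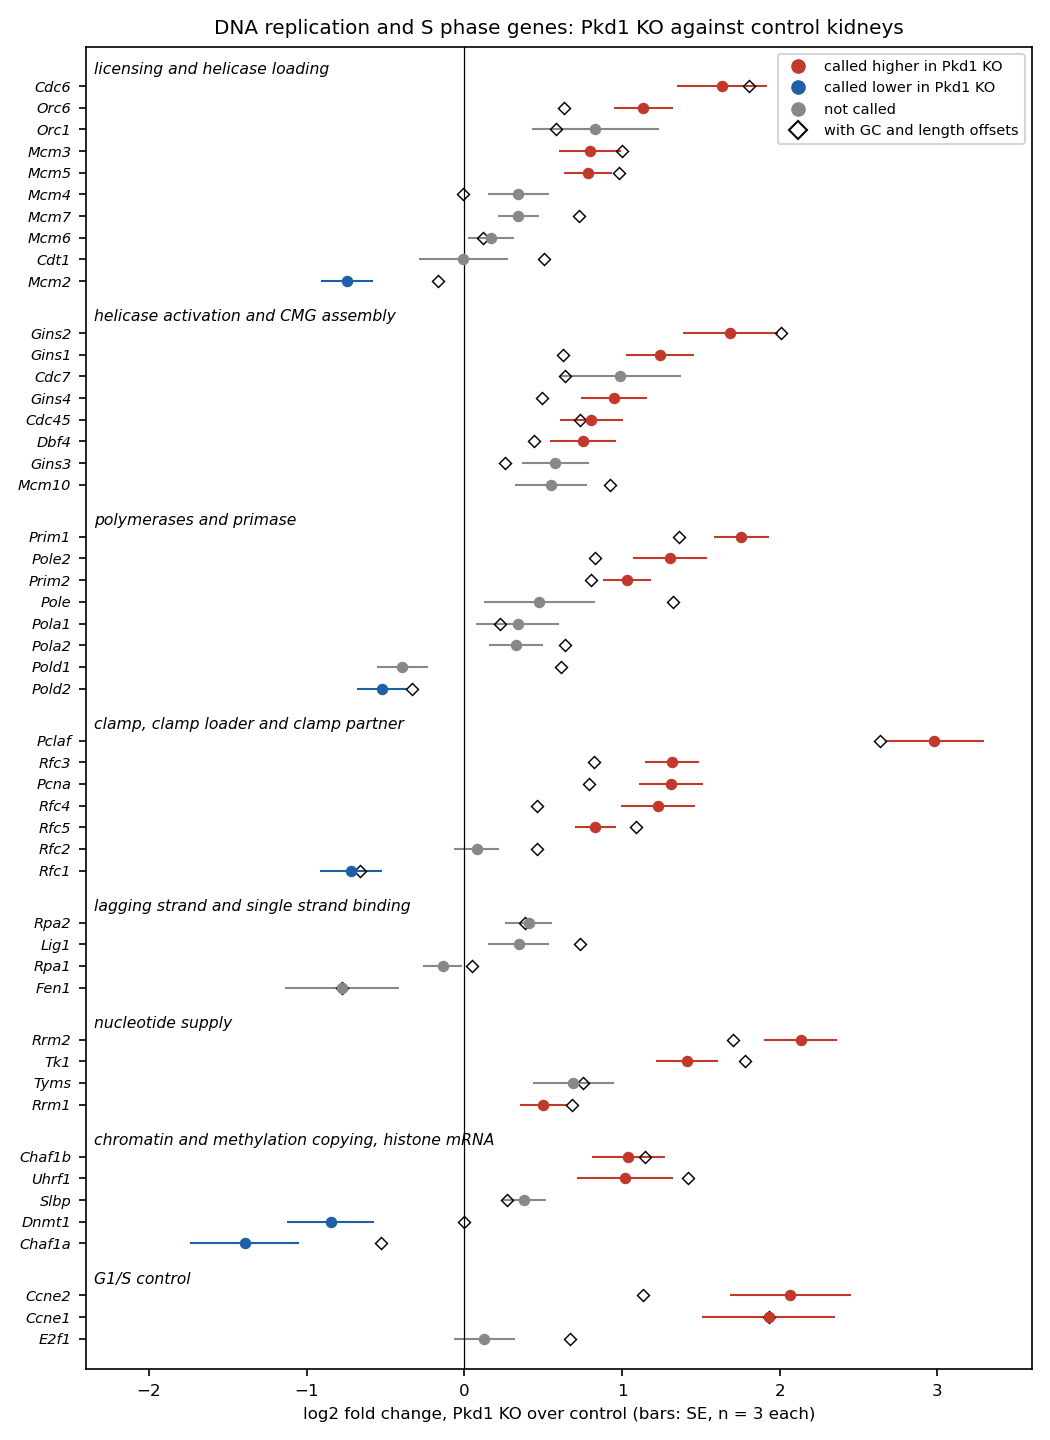
Log2 fold change, Pkd1 KO over control, of the 49 members grouped by role (x axis, log2 units; points are the values and bars 1 SE, n = 3 kidneys each; open diamonds are the values with GC and length offsets). Most points lie right of 0, up to 2.98 for Pclaf, and the 5 blue points called lower are Mcm2, Pold2, Rfc1, Dnmt1 and Chaf1a.

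Licensing and helicase loading genes split by subunit, with 4 of 10 higher, 1 lower and 5 not called. Among all genes tested, 22.7% rose and 24.2% fell. Cdc6, the ATPase that brings the MCM ring to origins, had 1.33, 1.85 and 1.58 CPM in Pkd1 KO kidneys, against 0.622, 0.502 and 0.404 CPM in control kidneys. Its 3 Pkd1 KO values were all above the controls, and its log2 fold change was 1.64 ± 0.29 (adjusted p = 0.00339), on 18 to 113 counts a library. Orc6, a subunit of the origin recognition complex, had 16.6, 17.6 and 16.9 CPM in Pkd1 KO kidneys, against 6.64, 6.76 and 9.87 CPM in control kidneys. The Pkd1 KO libraries were close to each other and stood apart from the controls (log2 fold change 1.14 ± 0.19, adjusted p = 0.00297). Orc1, the largest subunit of that complex, was near the detection limit with 13 to 45 counts a library, and its log2 fold change of 0.83 ± 0.40 was not called (adjusted p = 0.119).

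Within the MCM ring, a hexamer of 6 related subunits, the transcripts did not change together. Mcm2 fell to 8.47, 7.63 and 8.89 CPM in Pkd1 KO kidneys, against 14.4, 15.8 and 11.8 CPM in control kidneys. All 3 Pkd1 KO values were below the lowest control, and the log2 fold change was -0.75 ± 0.17 (adjusted p = 0.00720). With the offsets the Mcm2 value was -0.17 (adjusted p = 0.313). Mcm3 (0.80 ± 0.20, adjusted p = 0.0114) and Mcm5 (0.79 ± 0.15, adjusted p = 0.00467) rose on the log2 scale. The call of Mcm3 was lost without Pkd1 KO 2 (adjusted p = 0.0522) or Pkd1 KO 3 (adjusted p = 0.0531). Mcm6, the most abundant licensing transcript per length over all 6 kidneys, had 31.4, 30.7 and 26.7 CPM in Pkd1 KO kidneys, against 26.1, 29.5 and 23.5 CPM in control kidneys. Those ranges overlapped, and neither Mcm6 (0.17 ± 0.15) nor Mcm4 (0.34 ± 0.19) was called. Mcm4 was called without control 2 (0.51, adjusted p = 0.0341). Mcm7 stood at 0.34 ± 0.13 with an adjusted p of 0.0551, and 0.73 with the offsets (adjusted p = 0.00337). Cdt1, the loader inhibited by geminin, was at -0.01 ± 0.28 and its groups overlapped.

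On a per-length scale (TPM, counts divided by union exon length and scaled to the library), the make-up of the 6 MCM transcripts shifted. Mcm2 made up 5.83% ± 0.47 of their summed TPM in Pkd1 KO kidneys and 11.8% ± 0.97 in controls (SD, n = 3 each). Mcm5 made up 12.7% ± 0.75 in Pkd1 KO kidneys and 8.99% ± 1.25 in controls, and Mcm3 10.1% ± 1.90 in Pkd1 KO kidneys and 7.07% ± 0.65 in controls. Mcm6 (30.9% ± 2.91 in Pkd1 KO and 33.3% ± 1.45 in controls) and Mcm7 (29.1% ± 1.77 in Pkd1 KO and 28.0% ± 2.62 in controls) held most of the rest, with groups that overlapped. These shares are not corrected for the trend with GC content and exon length, and the fall of Mcm2 was not called with the offsets (-0.17, adjusted p = 0.313).

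MCM promoters are shown because MCM genes are known E2F targets and their transcripts differed in direction here. The windows below run from 250 bases before to 50 bases after the annotated start, 5′ to 3′ on the strand of the gene, from RefSeq on build GRCm38.p6. Capitals mark any of 4 E2F letter strings, TTTCCCGC, TTTCGCGC, TTTGCCGC or TTTGGCGC, on either strand, some of which overlap each other.
Mcm5, which rose, chr8:75109259-75109558, plus strand: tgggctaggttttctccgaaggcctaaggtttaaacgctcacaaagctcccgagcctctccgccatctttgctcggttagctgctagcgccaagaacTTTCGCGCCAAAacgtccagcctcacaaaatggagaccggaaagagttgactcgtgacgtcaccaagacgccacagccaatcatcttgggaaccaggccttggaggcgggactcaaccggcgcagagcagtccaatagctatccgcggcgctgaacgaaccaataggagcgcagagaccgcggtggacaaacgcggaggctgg
Mcm3, which rose, chr1:20820263-20820562, minus strand: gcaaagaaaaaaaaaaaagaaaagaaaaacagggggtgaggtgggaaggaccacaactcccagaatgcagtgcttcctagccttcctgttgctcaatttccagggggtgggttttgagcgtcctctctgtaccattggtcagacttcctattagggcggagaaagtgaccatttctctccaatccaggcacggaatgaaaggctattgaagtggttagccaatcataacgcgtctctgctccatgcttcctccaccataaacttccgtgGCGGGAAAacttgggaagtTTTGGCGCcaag
Mcm6, which was not called, chr1:128359656-128359955, minus strand: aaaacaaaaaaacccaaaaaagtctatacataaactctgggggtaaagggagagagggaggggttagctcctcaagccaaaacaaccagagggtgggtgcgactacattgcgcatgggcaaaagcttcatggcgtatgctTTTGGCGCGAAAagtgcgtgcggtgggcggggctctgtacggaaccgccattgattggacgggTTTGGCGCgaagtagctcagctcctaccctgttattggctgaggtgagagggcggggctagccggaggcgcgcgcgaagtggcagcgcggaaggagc
Mcm2, which fell, chr6:88898731-88899030, minus strand: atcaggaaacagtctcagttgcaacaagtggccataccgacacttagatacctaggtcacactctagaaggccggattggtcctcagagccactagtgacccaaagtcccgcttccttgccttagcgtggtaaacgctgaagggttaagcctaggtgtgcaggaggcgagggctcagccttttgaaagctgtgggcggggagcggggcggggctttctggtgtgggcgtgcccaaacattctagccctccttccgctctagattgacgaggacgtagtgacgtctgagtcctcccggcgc
The Mcm5 and Mcm3 windows each held 2 of the strings and the Mcm6 window 3, while the Mcm2 window held none. Mcm7, not called, had 2 windows that are not shown, 1 with 2 strings and 1 with none. Windows were available for 41 of the 49 members, 50 windows in all, and none is shown for Ccne2, Gins1, Gins2, Gins4, Mcm4, Pole, Prim2 and Rfc2. An E2F string was found in 16 of the 50 member windows (32%), and in 744 of all 32851 windows (2.26%). It was found in 7 of 20 windows of members that rose (35%), 1 of 8 of members that fell (12.5%) and 8 of 22 of members not called (36.4%). By window, the share was similar in members that rose and in members not called. By gene, a string was found in 7 of 19 members that rose, 1 of 5 that fell and 8 of 17 not called. The string CCAAT, the core of the CCAAT box, was in 56% of member windows and 37.4% of all windows, and TTTGAA, the core of the CHR element of mitotic genes, in 18% of member windows and 17.9% of all windows. Such matches describe the letters of the windows and not bound sites.

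All 8 genes of helicase activation had positive log2 fold changes with every Pkd1 KO library above every control, and 5 of the 8 rose. Over all genes tested, 31.2% lay fully above the controls and 22.7% rose. Gins1, a GINS subunit, had 3.92, 4.001 and 3.74 CPM in Pkd1 KO kidneys, against 1.48, 1.42 and 2.04 CPM in control kidneys. These values were nearly alike within the Pkd1 KO group and apart from the controls, with a log2 fold change of 1.24 ± 0.22 (adjusted p = 0.00337). Gins4, another GINS subunit, had 43.6, 41.1 and 44.7 CPM in Pkd1 KO kidneys, against 21.3, 16.3 and 29.4 CPM in control kidneys, a log2 fold change of 0.95 ± 0.21 (adjusted p = 0.00677). Its controls differed among themselves more than its Pkd1 KO libraries did. Per length, Gins4 was far above its partners, at 74.9 ± 6.42 TPM in Pkd1 KO kidneys and 46.5 ± 9.09 TPM in controls, whereas the highest of the other 3 GINS transcripts was Gins1 at 6.00 ± 0.09 TPM in Pkd1 KO kidneys and 3.07 ± 0.35 TPM in controls. The TPM of Gins2 divides by all its exon bases, though reads that also fit an opposite-strand gene are left out. The rank of Gins2 among these 3 is therefore not settled.

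Gins2 had 5.14, 7.45 and 6.14 CPM in Pkd1 KO kidneys, against 1.55, 1.401 and 2.90 CPM in control kidneys, a log2 fold change of 1.69 ± 0.30 (adjusted p = 0.00360). The groups did not overlap, but 67.3% of the Gins2 exon bases are shared with Gse1 on the opposite strand, which averaged 2.74 CPM in Pkd1 KO kidneys and 13.0 CPM in controls. The libraries do not keep strand, and the counts used leave out reads that fit both genes. Counting all reads on either strand of Gins2, those of Gse1 included, gave -0.19 (adjusted p = 0.558), so the Gins2 value depends on how these reads were assigned.

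Cdc45, the helicase cofactor (0.81 ± 0.20, adjusted p = 0.0109), and Dbf4, the activator of the Cdc7 kinase (0.75 ± 0.21, adjusted p = 0.0177), also rose. Dbf4 lost its call without Pkd1 KO 2 (adjusted p = 0.0724), Pkd1 KO 3 (adjusted p = 0.0711) or control 1 (adjusted p = 0.0769). Cdc7 (0.99 ± 0.38, adjusted p = 0.0592), Gins3 (0.58 ± 0.21, adjusted p = 0.0511) and Mcm10, which helps the helicase start (0.55 ± 0.23, adjusted p = 0.0738), missed the threshold. Cdc7 and Mcm10 were called without control 3 (adjusted p = 0.0348 and 0.0147, in that order of genes).

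Among polymerases and primase, 3 of 8 rose, Prim1, Pole2 and Prim2, and 1 fell, Pold2. Of all genes tested, 22.7% rose and 24.2% fell. Prim1, the catalytic primase subunit that writes RNA primers, had 25.6, 30.6 and 33.8 CPM in Pkd1 KO kidneys, against 8.24, 7.97 and 10.5 CPM in control kidneys. The lowest Pkd1 KO value was more than 2-fold above the highest control, and the log2 fold change was 1.76 ± 0.17 (adjusted p = 0.00177). Prim2, its regulatory partner, rose by 1.03 ± 0.15 (adjusted p = 0.00259). Pole2, the second subunit of polymerase epsilon, had 5.56, 4.48 and 5.37 CPM in Pkd1 KO kidneys, against 1.79, 1.73 and 2.74 CPM in control kidneys, with a log2 fold change of 1.30 ± 0.24 (adjusted p = 0.00368).

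Pold2, the accessory subunit of polymerase delta and the most abundant transcript of this role per length, fell to 9.44, 9.64 and 11.6 CPM in Pkd1 KO kidneys, against 16.5, 13.5 and 14.1 CPM in control kidneys. Its groups were apart and the log2 fold change was -0.52 ± 0.16 (adjusted p = 0.0244). That call was lost with the offsets (-0.33, adjusted p = 0.0913) and under upper-quartile scaling (-0.36, adjusted p = 0.0939). It was also lost without Pkd1 KO 1 (adjusted p = 0.0940), Pkd1 KO 2 (adjusted p = 0.0991) or control 1 (adjusted p = 0.0842). Pold1, the catalytic delta subunit, was at -0.39 ± 0.16 (adjusted p = 0.0738) and turned to 0.61 with the offsets (adjusted p = 0.0432). DESeq2 called Pold1 lower (-0.41, adjusted p = 0.0438), so its calls differed in direction between settings. Pola1 (0.34 ± 0.26), Pola2 (0.33 ± 0.17) and Pole (0.48 ± 0.35), the large or accessory subunits of polymerases alpha and epsilon, were not called, and Pole was called without control 2 (0.98, adjusted p = 0.0124).

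Clamp and clamp loader genes held the strongest single rise of the list. Pclaf, a small partner of PCNA, had 5.92, 11.8 and 8.48 CPM in Pkd1 KO kidneys, against 1.32, 0.778 and 1.23 CPM in control kidneys. All Pkd1 KO libraries were at least 4-fold above the highest control, and the fitted change was 7.89-fold (log2 2.98 ± 0.32, adjusted p = 0.00192; 2.64 with the offsets). Its promoter window is shown as that of the member that changed most, with 1 E2F string lying across the annotated start.
Pclaf, chr9:65890073-65890372, plus strand: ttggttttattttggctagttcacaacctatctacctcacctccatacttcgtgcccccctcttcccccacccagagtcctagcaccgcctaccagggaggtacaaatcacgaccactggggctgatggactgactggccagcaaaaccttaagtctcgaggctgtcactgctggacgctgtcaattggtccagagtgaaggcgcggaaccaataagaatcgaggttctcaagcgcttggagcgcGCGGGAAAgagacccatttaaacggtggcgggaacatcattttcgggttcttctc
Pcna, the sliding clamp and the most abundant transcript of this role per length, had 40.9, 53.7 and 47.3 CPM in Pkd1 KO kidneys, against 19.6, 14.2 and 23.5 CPM in control kidneys. Those groups did not overlap, and the log2 fold change was 1.31 ± 0.20 (adjusted p = 0.00274). Processed pseudogenes of Pcna and of Tyms are annotated, and reads that fit a gene and its copy equally well are not in these counts.

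The 5 RFC subunits of the clamp loader changed in different directions. Rfc3, a small subunit, had 13.8, 16.3 and 17.98 CPM in Pkd1 KO kidneys, against 5.73, 6.28 and 7.29 CPM in control kidneys, and rose by 1.32 ± 0.17 on the log2 scale (adjusted p = 0.00234). Rfc4 (1.23 ± 0.23, adjusted p = 0.00431) and Rfc5 (0.83 ± 0.13, adjusted p = 0.00280) rose too, and Rfc2 did not pass the test (0.08 ± 0.14). Rfc1, the large subunit, fell to 19.4, 19.7 and 18.5 CPM in Pkd1 KO kidneys, against 29.4, 41.1 and 24.3 CPM in control kidneys. The Pkd1 KO values were almost the same and the controls spread widely above them, with a log2 fold change of -0.72 ± 0.20 (adjusted p = 0.0162; -0.66 with the offsets, adjusted p = 0.0153). Leaving out any 1 Pkd1 KO library raised the adjusted p of Rfc1 to between 0.0553 and 0.0620. For Rfc5, 10.7% of exon bases overlap Wsb2 on the opposite strand, and with reads of both strands counted its value was 0.25 (adjusted p = 0.124).

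Because subunits of 1 complex diverged, ratios of their TPM were taken within each library. The 10 pairs were picked after the values were seen, so no p-value is given for them. Rfc3 over Rfc1 was 1.19, 1.38 and 1.62 in Pkd1 KO kidneys, against 0.326, 0.255 and 0.501 in control kidneys. Prim1 over Pola1, the catalytic polymerase alpha subunit, was 11.9, 10.0 and 13.7 in Pkd1 KO kidneys, against 4.24, 2.91 and 7.53 in control kidneys. Mcm5 over Mcm2 was 1.96, 2.45 and 2.13 in Pkd1 KO kidneys, against 0.727, 0.622 and 0.958 in control kidneys. In each of these 3 pairs every Pkd1 KO ratio was above every control ratio, and the difference kept its sign with the offsets (1.48, 1.13 and 1.15 as differences of log2 fold changes, in the order given). Pole2 over Pole overlapped between the groups and its difference turned sign with the offsets (0.73 without and -0.50 with them), at 9.26, 8.67 and 12.1 in Pkd1 KO kidneys, against 6.85, 2.89 and 10.7 in control kidneys. Prim2 over Pola1 overlapped too, at 1.90 to 2.86 in Pkd1 KO kidneys and 1.04 to 2.21 in controls.

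**Figure D2:**
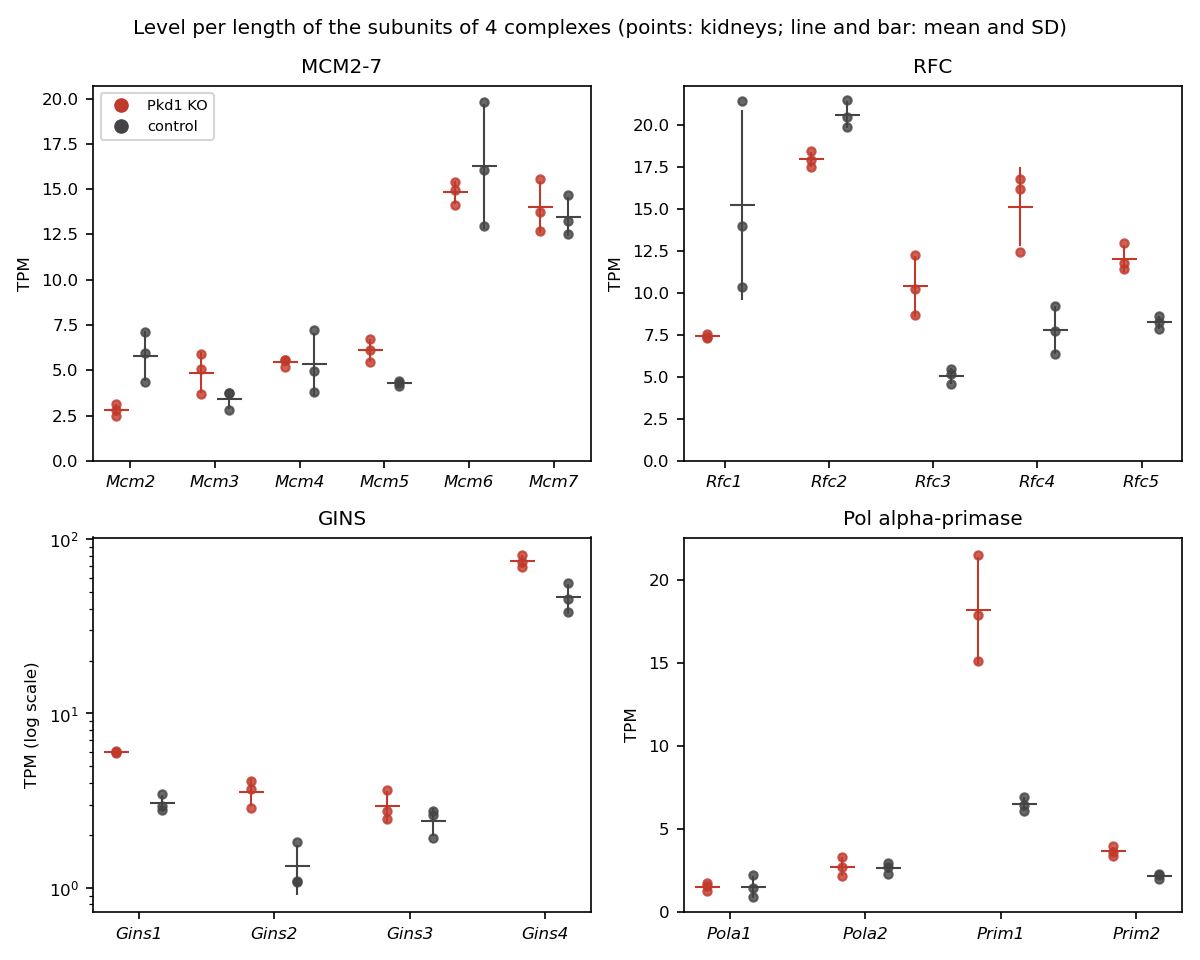
TPM of each subunit of 4 complexes (y axes in TPM, log axis for GINS; points are kidneys, the horizontal line is the mean and the vertical bar 1 SD, n = 3 each, Pkd1 KO left of control). Rfc1 and Mcm2 sit lower in Pkd1 KO than in control kidneys while their partners Rfc3, Rfc4 and Mcm5 sit higher, and Gins4 is far above the other GINS transcripts in both groups.

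None of the 4 lagging strand and single strand binding genes passed the test, where 46.9% of all genes tested were called. Rpa1, the large subunit of the single strand binding protein RPA and the most abundant of these transcripts per length, had 48.5, 48.6 and 51.3 CPM in Pkd1 KO kidneys, against 56.0, 52.0 and 55.2 CPM in control kidneys. The Pkd1 KO values lay just below the controls, and the log2 fold change of -0.14 ± 0.12 (adjusted p = 0.375) was 0.02 under upper-quartile scaling. Rpa2, the middle RPA subunit, had 11.1, 11.2 and 11.2 CPM in Pkd1 KO kidneys, against 7.40, 8.80 and 9.02 CPM in control kidneys. It missed the threshold narrowly, at 0.41 ± 0.15 (adjusted p = 0.0507), and was called without control 3 (0.41, adjusted p = 0.0490). Lig1, the ligase that seals Okazaki fragments, was at 0.34 ± 0.19 (adjusted p = 0.170), and 0.74 with the offsets (adjusted p = 0.00993).

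Fen1, the nuclease that trims Okazaki fragments, was listed at 0.425, 0.279 and 0.268 CPM in Pkd1 KO kidneys, against 0.680, 0.502 and 0.471 CPM in control kidneys, on 17 to 35 counts a library. An annotated antisense gene, Gm10143, covers 78.8% of its exon bases and Tmem258, also on the opposite strand and at 49.4 CPM in Pkd1 KO kidneys and 30.8 CPM in controls, covers 5.37%. With reads of both strands counted the level was 17.5 times as high, and this count may include reads of Tmem258. It gave 7.83, 8.87 and 8.01 CPM in Pkd1 KO kidneys, against 6.92, 7.07 and 7.14 CPM in control kidneys (log2 fold change 0.23, adjusted p = 0.223). Neither count was called, and they differ in direction.

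Nucleotide supply genes were all above the controls in every Pkd1 KO library, and 3 of 4 rose. Of all genes tested, 31.2% lay fully above and 22.7% rose. Rrm2, the small subunit of ribonucleotide reductase that limits deoxynucleotide synthesis in S phase, had 17.4, 31.9 and 24.4 CPM in Pkd1 KO kidneys, against 5.03, 5.69 and 6.08 CPM in control kidneys. The rise was 4.38-fold (log2 2.13 ± 0.23, adjusted p = 0.00199), with the highest value in Pkd1 KO 2 and no overlap. Tk1, the S phase thymidine kinase, had 15.0, 21.7 and 16.3 CPM in Pkd1 KO kidneys, against 6.29, 5.78 and 7.83 CPM in control kidneys (log2 fold change 1.41 ± 0.20, adjusted p = 0.00250). Rrm1, the large reductase subunit, rose less, by 0.50 ± 0.15 (adjusted p = 0.0215). The TPM ratio of Rrm2 to Rrm1 was 4.59 ± 1.00 in Pkd1 KO kidneys and 1.52 ± 0.29 in controls (SD, n = 3 each). Rrm1 lost its call without Pkd1 KO 2 (adjusted p = 0.0945), Pkd1 KO 3 (adjusted p = 0.0795) or control 1 (adjusted p = 0.0670). Tyms, thymidylate synthase, was not called at 0.69 ± 0.26 (adjusted p = 0.0526), and was called in 10 of 16 alternatives, among them the offsets (0.75, adjusted p = 0.0455), upper-quartile scaling (adjusted p = 0.0323), DESeq2 (adjusted p = 0.0319), and the fits without control 2 (adjusted p = 0.0460) or control 3 (adjusted p = 0.0117).

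Genes that copy chromatin and DNA methylation went both ways, with 2 of 5 higher and 2 lower, against 22.7% and 24.2% of all genes tested. Uhrf1, which recognises hemimethylated DNA behind the fork and recruits Dnmt1, had 2.18, 3.49 and 3.22 CPM in Pkd1 KO kidneys, against 1.53, 1.90 and 0.942 CPM in control kidneys. All Pkd1 KO values were higher, by 1.02 ± 0.30 on the log2 scale (adjusted p = 0.0234), a call lost without Pkd1 KO 2 (adjusted p = 0.0932), Pkd1 KO 3 (adjusted p = 0.0732) or control 1 (adjusted p = 0.0716). Dnmt1, the maintenance methyltransferase itself, had 10.8, 12.3 and 11.4 CPM in Pkd1 KO kidneys, against 18.2, 30.5 and 13.2 CPM in control kidneys. It fell by 0.85 ± 0.27 on the log2 scale (adjusted p = 0.0316), with control 2 far above the other controls. With the offsets Dnmt1 was at -0.00061 (adjusted p = 0.998), and under upper-quartile scaling it was at -0.67 (adjusted p = 0.0587). Without Pkd1 KO 1, 2 or 3 or control 1, in turn, its adjusted p was 0.102, 0.0804, 0.0866 and 0.0575.

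Chaf1b, a subunit of the histone chaperone CAF-1, had 2.14, 2.85 and 2.83 CPM in Pkd1 KO kidneys, against 1.19, 1.47 and 1.14 CPM in control kidneys (log2 fold change 1.04 ± 0.23, adjusted p = 0.00747). Chaf1a, its large partner, fell to 1.03, 0.672 and 1.04 CPM in Pkd1 KO kidneys, against 2.21, 3.46 and 1.503 CPM in control kidneys. Its groups were apart and the log2 fold change was -1.39 ± 0.35 (adjusted p = 0.0113), without a call when the offsets were used (-0.53, adjusted p = 0.140) or without Pkd1 KO 2 (adjusted p = 0.0538). Of the Chaf1a exon bases, 52.5% are shared with Ubxn6 on the opposite strand, and counting both strands gave 0.60 (adjusted p = 0.0162) at 54.1 times the level. The both-strand count includes reads of Ubxn6, and the count used leaves out reads that fit both genes. Slbp, which binds histone messenger RNA and is the most abundant transcript of this role per length, had 19.6, 23.8 and 22.2 CPM in Pkd1 KO kidneys, against 16.7, 16.2 and 17.7 CPM in control kidneys. It stood above the controls without overlap but missed the threshold (0.38 ± 0.14, adjusted p = 0.0515).

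Both E cyclins, which drive the Cdk2 kinase at the entry into S phase, rose. Ccne2 had 7.26, 12.4 and 9.63 CPM in Pkd1 KO kidneys, against 2.97, 1.04 and 3.01 CPM in control kidneys. The change was 4.19-fold (log2 2.07 ± 0.38, adjusted p = 0.00402), and 1.13 on the log2 scale with the offsets (adjusted p = 0.0190). Ccne1 had 1.25, 2.74 and 1.89 CPM in Pkd1 KO kidneys, against 0.388, 0.346 and 0.830 CPM in control kidneys (log2 fold change 1.93 ± 0.42, adjusted p = 0.00675). For both cyclins Pkd1 KO 2 was the highest library and Pkd1 KO 1 the lowest of the Pkd1 KO group. E2f1, the activator of S phase genes, had overlapping groups and a log2 fold change of 0.13 ± 0.19 (adjusted p = 0.610), and was called with the offsets (0.67, adjusted p = 0.0199).

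Exon bases of 15 of the 49 members lie opposite another annotated gene, and the level of 6 members (Gins2, Rfc5, Fen1, Chaf1a, Pcna and Ccne2) moved by over 1.5 times when reads of both strands were counted. Pcna is not among the 15, which were found in GENCODE M21, and the annotation used for counting is not known. Pcna (1.16, adjusted p = 0.00296) and Ccne2 (1.68, adjusted p = 0.00334) were called higher in that count too. Orc6 and Rfc4 share 6.93% and 12.7% of their exon bases with Vps35 and Eif4a2, both abundant and both higher on average in Pkd1 KO kidneys, and were at 1.14 (adjusted p = 0.00295) and 1.33 (adjusted p = 0.00453) with both strands counted.

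The libraries were not equally far apart over all genes. On the first principal component of all genes tested (70.4% of the variance), Pkd1 KO 1, 2 and 3 lay at -52.4, -66.4 and -56.1, and control 1, 2 and 3 at 58.1, 92.7 and 24.2, so Pkd1 KO 2 and control 2 were the outermost and control 3 the control nearest to the Pkd1 KO group. Members that rose had a similar order. Of the 24, 15 were highest in Pkd1 KO 2, 8 in Pkd1 KO 3 and 1 in Pkd1 KO 1, and 18 were lowest in Pkd1 KO 1 among the Pkd1 KO libraries. Among controls, 17 of the 24 were highest in control 3, 5 in control 1 and 2 in control 2. The median level of all 49 members relative to their control means, in log2(CPM + 0.1), was 0.60, 0.83 and 0.72 in Pkd1 KO 1, 2 and 3, and -0.03, -0.03 and 0.07 in control 1, 2 and 3. Summed over the 49 members, the libraries held 605, 688 and 660 CPM in Pkd1 KO kidneys, against 455, 464 and 474 CPM in control kidneys.

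**Figure D3:**
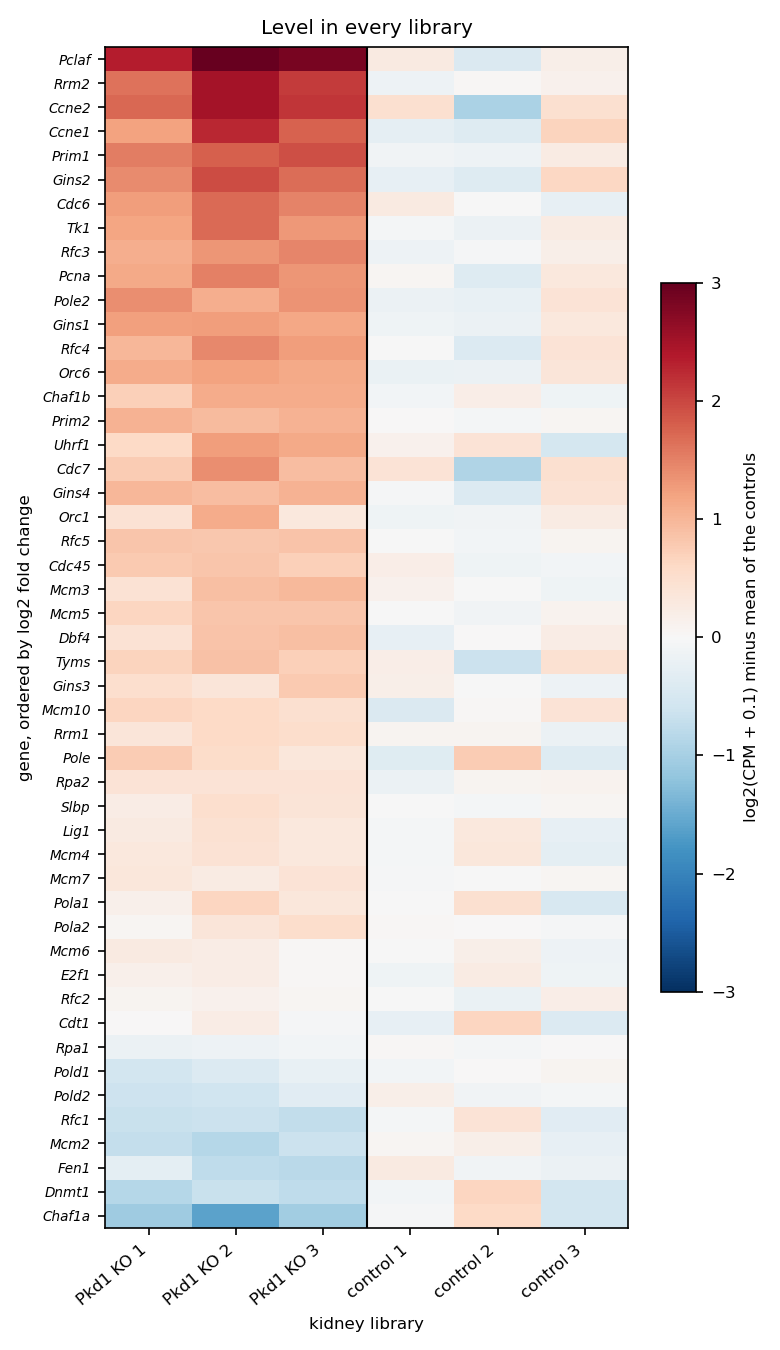
Level of each member in each of the 6 kidney libraries as a colour, log2(CPM + 0.1) minus the mean of the 3 controls (rows ordered by log2 fold change, Pkd1 KO columns left of the line and controls right of it). The upper rows are red in all 3 Pkd1 KO libraries, and 15 of the 24 members called higher are highest in Pkd1 KO 2, and the lowest rows, from Rpa1 to Chaf1a, lie below the control mean in all 3.

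Some cell type markers had the order of most members that rose across the Pkd1 KO libraries, and others had a different order. Macrophage markers summed to 203, 331 and 289 CPM in Pkd1 KO kidneys, against 152, 114 and 132 CPM in control kidneys, and 5 of 8 rose and 1 fell. Lyz2, lysozyme, carried most of that difference (log2 fold change 2.70 ± 0.35, adjusted p = 0.00234), and without it the sums overlapped, at 105, 142 and 124 CPM in Pkd1 KO kidneys, against 126, 101 and 102 CPM in control kidneys. Csf1r, the macrophage growth factor receptor, fell (-1.01 ± 0.17, adjusted p = 0.00297), and Adgre1 and Cd68 were not called. Tubule injury markers summed to 725, 1193 and 1017 CPM in Pkd1 KO kidneys, against 618, 488 and 638 CPM in control kidneys, with 5 of 6 higher. The macrophage sum, with or without Lyz2, and the injury sum were highest in Pkd1 KO 2 and lowest of the Pkd1 KO group in Pkd1 KO 1, as most members that rose were. T cell markers summed to 10.7, 13.4 and 9.30 CPM in Pkd1 KO kidneys, against 6.49, 4.62 and 6.78 CPM in control kidneys (3 of 6 rose). Of the neutrophil markers, S100a9 (1.74 ± 0.50, adjusted p = 0.0197) and S100a8 (1.48 ± 0.54, adjusted p = 0.04999) rose among 3 tested, with summed CPM of 1.38 to 2.65 in Pkd1 KO kidneys and 1.18 to 1.44 in controls, and Ly6g was at 0 in all 6 libraries. B cell markers summed to 3.07 to 5.19 CPM in Pkd1 KO kidneys and 1.32 to 3.17 CPM in controls, and 1 of 4 rose, Ms4a1 (2.64 ± 0.50, adjusted p = 0.00432), a share near the 22.7% of all genes. Proximal tubule markers summed to 3728 to 4300 CPM in Pkd1 KO kidneys and 5852 to 11860 CPM in controls, and 5 of 7 fell and 1 rose. Falls were also called in 2 of 4 thick ascending limb, 2 of 3 distal convoluted tubule and 3 of 3 collecting duct principal cell markers tested. Of intercalated cell markers 2 of 5 fell and 1 rose. Podocyte and endothelium markers each fell in 4 of 5, and 1 endothelium marker rose. Fibroblast and pericyte markers went both ways (2 of 5 rose and 2 fell), and none of 5 erythroid markers was called. Among all genes tested, 22.7% rose and 24.2% fell. With the offsets, 4 of 8 macrophage markers rose and 1 fell, and 3 of 6 tubule injury and 1 of 6 T cell markers rose. None of the 3 neutrophil markers tested was called with them, 1 of 4 B cell markers rose, and 5 of 7 proximal tubule markers fell. Falls with the offsets were also called in 3 of 4 thick ascending limb, 3 of 3 distal convoluted tubule and 2 of 3 principal cell markers. They were called in 3 of 5 intercalated cell and 1 of 5 podocyte markers, and none of 5 endothelium markers was called. Of fibroblast and pericyte markers 2 rose and 1 fell. Over all genes, 17.1% rose and 17.3% fell with the offsets. The part of these cell types in the changes of replication genes was not tested.

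Replication genes outside the list rose in 19 of 35 tested and fell in 2, against 22.7% and 24.2% of all genes tested. Their median log2 fold change was 0.58. Exo1, a nuclease of replication and repair, had 0.647, 1.25 and 0.821 CPM in Pkd1 KO kidneys, against 0.0971, 0.0865 and 0.0898 CPM in control kidneys (3.29 ± 0.42, adjusted p = 0.00234), so it was nearly undetected in controls. Dscc1, a subunit of an alternative clamp loader, rose by 2.56 ± 0.61 (adjusted p = 0.00941). Rpa3, the smallest RPA subunit, had 35.5, 48.6 and 44.8 CPM in Pkd1 KO kidneys, against 8.33, 7.70 and 14.8 CPM in control kidneys (2.07 ± 0.26, adjusted p = 0.00234; 0.97 with the offsets), while Rpa1 and Rpa2 were not called. Samhd1, which degrades deoxynucleotides (-0.83 ± 0.18, adjusted p = 0.00595), and Mcmbp, an MCM binding protein (-0.55 ± 0.15, adjusted p = 0.0157), fell, and the Samhd1 call was lost with the offsets (-0.26, adjusted p = 0.121).

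Regulators of G1/S rose in 8 of 22 tested and fell in 2, against 22.7% and 24.2% of all genes tested, with a median of 0.34. Ccna2, the S phase cyclin (2.19 ± 0.26, adjusted p = 0.00234), and the E2F repressors E2f7 (1.74 ± 0.53, adjusted p = 0.0244) and E2f8 (1.59 ± 0.44, adjusted p = 0.0175) rose. Fbxw7, a ubiquitin ligase adaptor that targets cyclin E (-0.65 ± 0.20, adjusted p = 0.0251), and E2f4, an E2F of quiescent cells (-0.48 ± 0.15, adjusted p = 0.0247), fell, and the E2f4 call was lost with the offsets (-0.30, adjusted p = 0.0922). Mitosis genes, by comparison, rose in 29 of 34, fell in none, and had a median of 2.09, with Pbk (3.61 ± 0.33, adjusted p = 0.00167), Cdk1 (3.46 ± 0.33, adjusted p = 0.00177) and Nuf2 (3.38 ± 0.27, adjusted p = 0.00164) as the largest changes of that list. The summed CPM of mitosis genes was 218, 339 and 252 in Pkd1 KO kidneys, against 75.9, 75.6 and 82.5 in control kidneys. No test of the difference between these lists was made.

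**Figure D4:**
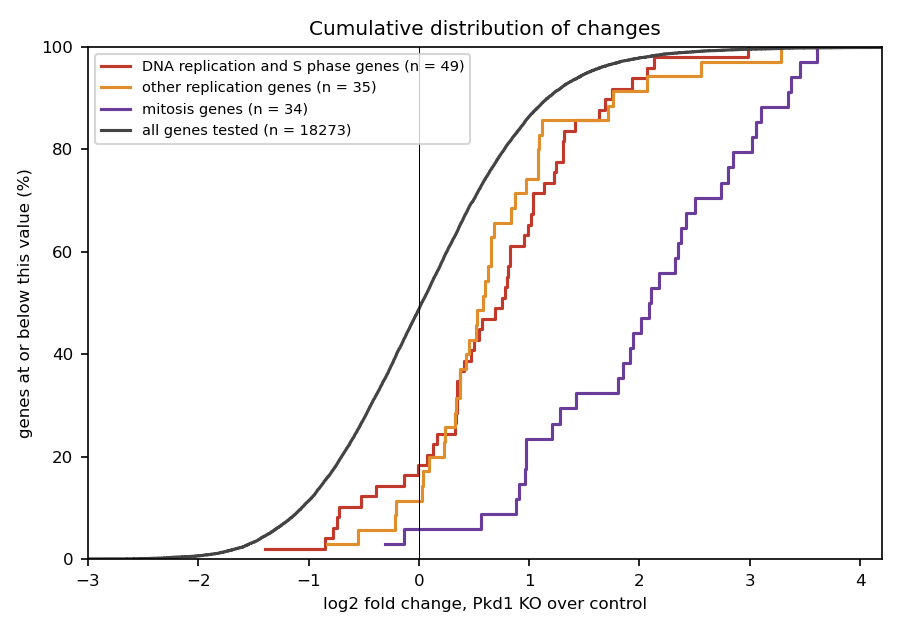
Cumulative share of genes (y axis, percent) at or below each log2 fold change, Pkd1 KO over control (x axis), for the 49 members, 35 other replication genes, 34 mitosis genes and all 18273 genes tested. The curve of the members runs right of that of all genes, with medians of 0.75 and 0.03, and the curve of mitosis genes lies further right, with a median of 2.09.

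Gene structure moved with the changes across all genes tested. By eighths of GC content, from the lowest to the highest, medians over all genes ran from 0.56 to -0.60 on the log2 scale, and by eighths of exon length from 0.65 to -0.51. The members were close to all genes in structure, with a median GC content of 48.9% against 49.4% and a median exon length of 4259 bases against 3787 bases. Of the 25 members with the lower GC content 13 rose and 1 fell, and of the other 24, 11 rose and 4 fell. Of the 25 shorter members 16 rose and 1 fell, and of the 24 longer ones 8 rose and 4 fell. Calls over all genes were not counted by GC content or length, so these splits cannot be told apart from the trend over all genes. With the offsets, 16 of the 25 shorter and 14 of the 24 longer members rose, and Rfc1, one of the longer, fell. Of the 5 members called lower without the offsets, Mcm2, Pold2, Dnmt1 and Chaf1a were not called with them.

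**Figure D5:**
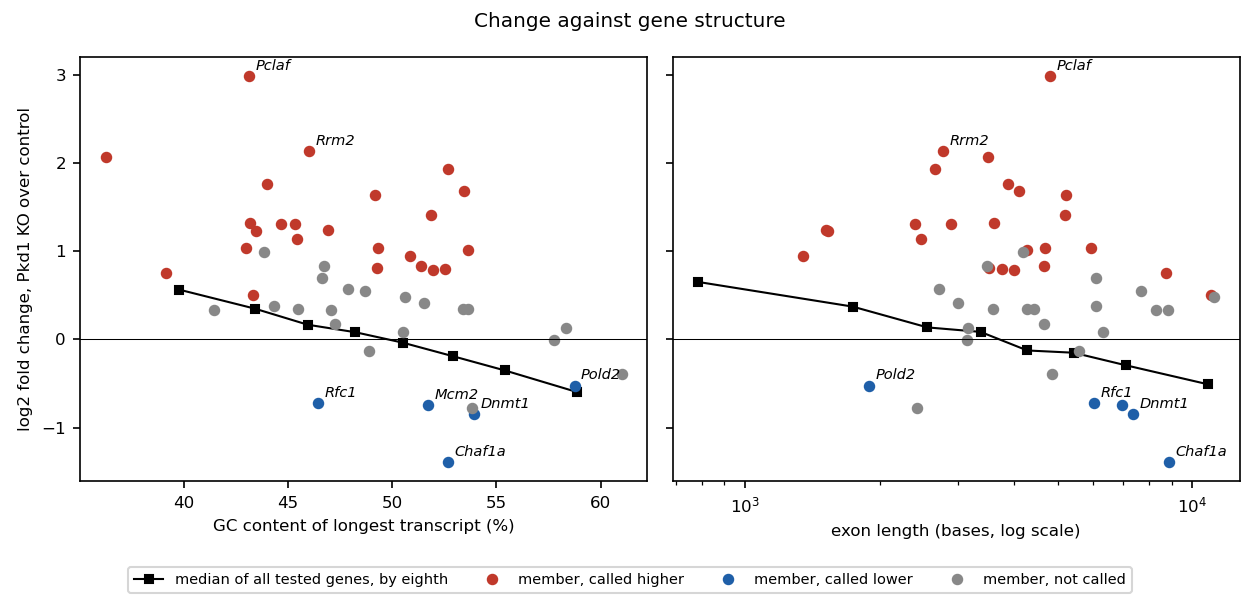
Log2 fold change of the 49 members (points, coloured by call) against GC content of the longest transcript (left, percent) and exon length (right, bases, log axis), with the median of all tested genes in each eighth as squares. The squares run downward from 0.56 to -0.60 with GC content and from 0.65 to -0.51 with length, and most members lie above them.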

How the data were processed

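Whole snap-frozen kidneys were profiled by poly-A RNA sequencing with randomly primed cDNA, per the labels' protocols. The deposited values are raw read counts per gene in 7 tables, in the layout of STAR's gene counts, with no normalization by the authors. FastQC 0.11.8, cutadapt 4.0, STAR 2.6.1e and build GRCm39 are named in the submitters' processing notes, while the annotation used for counting was not given in the sources used here. Of the reads assigned to a strand, 49.1% to 50.0% fell on the first, so these libraries are unstranded. The unstranded column was taken, which leaves out reads that fit overlapping genes. The lines that name no gene held 25.4% to 26.3% of reads in Pkd1 KO libraries and 22.9% to 23.8% in controls and were left out. Both runs of control 1 were summed and used as 1 sample.

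Symbols, exon lengths and GC content came from GENCODE M21, joined by identifier (52073 of 56923 matched), with no coordinates printed from it. Promoter windows are RefSeq's on GRCm38.p6. Pkd1 KO was set against control with edgeR 4.0.16 in R 4.3.3 (filterByExpr, TMM, quasi-likelihood test, Benjamini-Hochberg adjustment at 0.05), with SE taken as the log2 fold change over the square root of F. CPM values use the TMM library size. For the offsets, a robust loess surface (span 0.3) of each library's log2 CPM, relative to its mean over all 6 libraries, on GC content and log2 exon length was added to that test. This also removes any true change shared by long or GC-rich genes. Scripts were tested on simulated counts.

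Within each role, the members given by sample are the 2 that changed most in the direction of most calls, all called the other way, and the 1 with the highest mean TPM. The members, the role and comparison lists and this rule were chosen with earlier results of these data known. Alternatives were RLE and upper-quartile scaling, no filter, a mean of at least 1 CPM, the offsets, a replicate block, the deeper run of control 1, leaving out each sample, and DESeq2 1.42.0. The sum of both strand columns was added after the data were seen. Some genes of the repair list are not reported here.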

Additional observations from a re-analysis of the deposited data

How the results depend on the processing

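The 24 members called higher stayed within 20 to 28 when each sample was left out, and 34 were called under upper-quartile scaling and 30 with DESeq2. Of these 24, 16 kept their call in all 16 alternatives, and of the 5 called lower none did. The members called lower were 3 under upper-quartile scaling, 1 with GC and length offsets, 1 with the offsets and the replicate block together, and 1 to 5 with each sample left out (1 without Pkd1 KO 2, 2 without Pkd1 KO 1, 3 without Pkd1 KO 3 or control 1). DESeq2 called the same 5 lower as the test as reported, and Pold1 as well (-0.41, adjusted p = 0.0438). The members' median was 0.92 under upper-quartile scaling, which moved the median of all genes to 0.19, against 0.03, and the share of higher calls to 60.5%, against 48.4%. It was 0.60 with both strands summed. Over all genes, 8579 were called in the test as reported, 5071 to 10318 with each sample left out (5071 without Pkd1 KO 2), and 5399 with the block and the offsets. Pkd1 was at -0.34 with the offsets (adjusted p = 0.0644) and -0.33 with the offsets and the block (adjusted p = 0.0928). Among members called in either fit, signs turned for Pold1 with the offsets (0.61, and 0.64 with the block added), Dnmt1 with both (0.020), and Gins2 (-0.19) and Chaf1a (0.60) with both strands summed. Members not called in either fit that changed sign were Fen1 (0.23 with both strands summed), Cdt1 (0.51 with the offsets, and above 0 in other settings), Rpa1 (0.05 with the offsets and 0.02 under upper-quartile scaling), Mcm4 (-0.0056 with the offsets) and Rfc2 (-0.04 without control 2). The cause of these changes was not tested. The replicate numbers were not found to pair the samples, since deviations of same-numbered samples correlated at 0.038, -0.084 and -0.029. With the replicate block alone, 7397 genes were called, 24 members rose and 4 fell, with Pold2 not called (adjusted p = 0.0562). The planned search for PCNA-binding motifs in member proteins was not run. Counts under about 50 in every library limit Orc1 and Fen1. Control counts were also under 50 for genes called higher, among them Cdc6 (18 to 32), Ccne1 (20 to 37), Exo1 (4 to 5) and Dscc1 (2 to 17). The same held for E2f7 (3 to 13), E2f8 (5 to 12), Fanci (5 to 13), Cdca5 (12 to 22), Ms4a1 (4 to 18), S100a8 (7 to 22) and S100a9 (9 to 13). Their fold changes rest on few control reads.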

Other observations

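Genes that repair and guard replication forks and genes that hold or condense sister chromatids were looked at after the values of the other lists were seen, so their counts are descriptions. Of 16 genes of replication-coupled repair and checkpoint, 7 rose and none fell, where 22.7% of all genes tested rose and 24.2% fell. Their median log2 fold change was 0.61. In 9 of the 16 every Pkd1 KO library lay above every control, and in 4 every one lay below. Over all genes tested, 31.2% lay fully above and 30.0% fully below. The checkpoint kinase gene Chek1 had 2.57, 3.48 and 2.97 CPM in Pkd1 KO kidneys, against 1.07, 0.917 and 0.830 CPM in control kidneys (log2 fold change 1.68 ± 0.23, adjusted p = 0.00245, edgeR). The Fanconi anaemia genes Fanci (2.10 ± 0.44, adjusted p = 0.00613) and Fancb (1.34 ± 0.24, adjusted p = 0.00360) also rose. In each of these 3 genes every Pkd1 KO library was above every control.

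Of 16 cohesin and condensin genes, 7 rose and 3 fell, where 22.7% of all genes tested rose and 24.2% fell. In this fit the share that fell was not above that of all genes. With the offsets 7 rose and 4 fell, against 17.1% and 17.3% of all genes, so the share that fell was then above it. Cdca5, which codes for sororin, the S phase guard of cohesin, had 1.70, 3.40 and 2.76 CPM in Pkd1 KO kidneys, against 0.233, 0.381 and 0.382 CPM in control kidneys (2.98 ± 0.35, adjusted p = 0.00234). Esco2, the acetyltransferase that locks cohesin during S phase, rose by 2.89 ± 0.37 (adjusted p = 0.00234). The cohesin ring subunit Smc1a fell to 20.01, 20.8 and 19.1 CPM in Pkd1 KO kidneys, against 45.3, 76.0 and 30.6 CPM in control kidneys (-1.34 ± 0.29, adjusted p = 0.00642; -1.27 with the offsets). Smc3, its partner in the ring, was at -0.81 ± 0.23 (adjusted p = 0.0188; -1.15 with the offsets), and Stag1, a subunit that binds the ring, at -0.51 ± 0.16 (adjusted p = 0.0259; -0.40 with the offsets). In the Smc1a and Smc3 counts the Pkd1 KO libraries were close together and control 2 was the highest control, as it was for Mcm2, Rfc1, Dnmt1 and Chaf1a.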
